A study of Mus musculus with 12 samples.

Results

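Methylation was examined at 10 genes of the DNA methylation machinery itself: the writers Dnmt1, Dnmt3a and Dnmt3b with the Dnmt1 recruiter Uhrf1, the erasers Tet1, Tet2 and Tet3, and the methyl-CpG readers Mbd1, Mbd2 and Mbd3. Members were the CpG rows that lay in one of these genes or in the 2000 bp upstream of it, in the GENCODE vM21 basic annotation of the mm10 genome, and that at least 9 of the 12 libraries listed with 10 or more reads. A row is the cytosine of 1 strand of a CpG, so a CpG read on both strands gives a pair of rows. In all, 1911 rows met this rule, of 1697478 rows listed in at least 9 libraries over the autosomes and chromosome X. All 1911 lay on the cytosine of a CpG in the reference genome.

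The study used reduced representation bisulfite sequencing (RRBS), in which DNA is cut at short GC-rich recognition sites and unmethylated cytosine is converted and read as T. The brain tissue was hippocampus and cortex dissected together, from mice labelled 11 months old. Wild-type (Wt) mice were 3 females and 1 animal labelled male. Tg2576 (Tg) mice, 4 females and 4 males, carry a human APP transgene with the Swedish mutation, expressed under a prion promoter. The tissue is a mixture of neurons, glia and other cells, so a level between 0 and 100% can be a share of cells, a share of alleles or both. Bisulfite also does not separate methylated from hydroxymethylated cytosine, the product of the Tet enzymes, which is abundant in brain.

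DNA methylation is written by Dnmt3a and Dnmt3b on unmethylated DNA and copied onto the new strand after replication by Dnmt1, which Uhrf1 brings to half-methylated CpGs. Tet enzymes oxidise the methyl group, the first step of its removal. Mbd proteins bind methylated CpGs or, as Mbd3 does, belong to the same repressor complexes, and recruit histone deacetylases. The start sites of such broadly used genes usually lie in CpG islands, which stay unmethylated, while gene bodies are usually methylated.

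The total coverage of a library ranged from 33619981 to 131446104 reads summed over rows. The libraries listed between 1489 (Tg female 4) and 1910 (Wt female 3) of the 1911 member rows, with a median of 20 to 59 reads a row. The library labelled Wt male did not match its label: its mean level on chromosome X was 19.9%, against 20.7 to 23.0% in the libraries labelled female and 5.50 to 5.67% in the 4 Tg males. Mean autosomal levels ran from 5.15 to 6.06% and were highest in Wt female 1, Tg female 1 and Tg female 2. No pair of libraries had equal counts at more than 4.06% of rows. None of the 10 genes is on chromosome X, and the results without the library labelled Wt male are among those given below.

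The contrasts between start sites can be read against the DNA itself. The first pair of sequences below lies just upstream of a start, once at the first start of Dnmt3a and once at the internal start that gives the short protein Dnmt3a2, and an intronic stretch of Dnmt3a follows because it was nearly unmethylated although it lies far from any start in the annotation. Sequences are from the RefSeq assembly GRCm38.p6 (mm10), run 5′ to 3′ on the strand of the gene, and have in capitals each CpG with a measured row. They lie at chr12:3806780-3806979, chr12:3891528-3891727 and chr12:3871755-3871920, all on the plus strand.

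Dnmt3a first start, upstream: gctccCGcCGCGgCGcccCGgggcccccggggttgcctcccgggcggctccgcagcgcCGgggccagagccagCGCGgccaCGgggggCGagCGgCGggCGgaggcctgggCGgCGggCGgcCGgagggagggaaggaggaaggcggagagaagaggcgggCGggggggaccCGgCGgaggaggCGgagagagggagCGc
Dnmt3a internal start, upstream: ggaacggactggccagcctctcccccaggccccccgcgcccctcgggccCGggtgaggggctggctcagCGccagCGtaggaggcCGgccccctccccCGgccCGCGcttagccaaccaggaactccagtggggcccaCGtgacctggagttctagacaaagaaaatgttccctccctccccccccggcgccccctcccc
Dnmt3a intron: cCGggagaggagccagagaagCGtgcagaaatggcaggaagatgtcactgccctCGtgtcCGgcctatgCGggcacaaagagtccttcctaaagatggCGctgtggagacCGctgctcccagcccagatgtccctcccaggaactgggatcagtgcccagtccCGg

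The first of these held 29 CpGs in 200 bases, and its 37 measured rows had a mean level of 0.437%. The second held 14 CpGs in the same length, and its 10 rows had a mean of 7.97%, with single rows from 0.576 to 20.2%. The intronic stretch held 8 CpGs in 166 bases, and its 14 rows had a mean of 2.09%.

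For Tet1 and Mbd3 the comparison is between an unmethylated and a methylated place that the annotations both put next to a start. The Tet1 sequences lie upstream of the RefSeq start (chr10:62887325-62887404) and in the coding exon that holds the start of the GENCODE basic transcript Tet1-201 (chr10:62879817-62879881). The Mbd3 sequences lie upstream of the first start (chr10:80399551-80399830) and in a coding exon just downstream of the internal start of Mbd3-202 (chr10:80395064-80395201). All 4 are on the minus strand.

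Tet1 RefSeq start, upstream: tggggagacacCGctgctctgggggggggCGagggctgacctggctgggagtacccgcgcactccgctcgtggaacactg
Tet1 coding exon: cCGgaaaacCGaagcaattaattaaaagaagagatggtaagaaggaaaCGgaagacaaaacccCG
Mbd3 first start, upstream: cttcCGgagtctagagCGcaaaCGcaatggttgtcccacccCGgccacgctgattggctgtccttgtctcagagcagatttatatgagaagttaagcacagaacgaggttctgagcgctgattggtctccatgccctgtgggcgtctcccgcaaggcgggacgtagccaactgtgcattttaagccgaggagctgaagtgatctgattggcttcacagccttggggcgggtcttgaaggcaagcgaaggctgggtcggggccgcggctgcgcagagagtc
Mbd3 coding exon: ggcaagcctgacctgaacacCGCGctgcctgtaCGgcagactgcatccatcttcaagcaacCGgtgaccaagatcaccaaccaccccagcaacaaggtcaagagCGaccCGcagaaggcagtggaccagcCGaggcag

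The 4 rows of the Tet1 coding exon had a mean of 92.1%, and the 2 rows of the sequence upstream of the RefSeq start had a mean of 1.35%. At Mbd3, the 10 rows of the coding exon had a mean of 91.7% and the 6 rows upstream of the first start had a mean of 0.940%. The methylated Tet1 and Mbd3 sequences, of 65 and 138 bases, held 6.15 and 5.07 CpGs per 100 bases. The unmethylated ones, of 80 and 280 bases, held 7.50 and 6.43, with 2 of 6 and 4 of 18 CpGs measured. The nearly unmethylated Dnmt3a intron held 4.82. A count around each measured stretch gave 5.98 at the Tet1 coding exon. It gave 5.98 and 5.65 at the unmethylated stretches chr10:62886150-62886465 and chr10:62886848-62887392, so the order at Tet1 depended on the window.

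The 10 genes together had the low methylation of CpG islands. Of the 1911 rows, 1620 were under 5%, 35 were at 5 to 20%, 95 were at 20 to 80% and 161 were above 80%. The share under 5% was 84.8%, against 73.2% of all rows tested in the genome, and the share above 80% was 8.42%, against 8.95%. Most rows (1521) lay within 1000 bp of a basic transcript start, here called the promoter, and 390 lay elsewhere in a gene or upstream of it. Outside promoters, the 85 coding rows had a mean level of 85.3%, the 48 rows in untranslated exons 58.0% and the 251 intronic rows 29.2%. These intronic rows include 107 of Tet1, at a mean of 1.55%, most of them in an unmethylated island described below. Levels on both strands of a CpG were close: over 738 CpGs with both strands measured, the median difference was 0.649 percentage points, and 3 CpGs differed by more than 20 points.

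**Figure D1:**
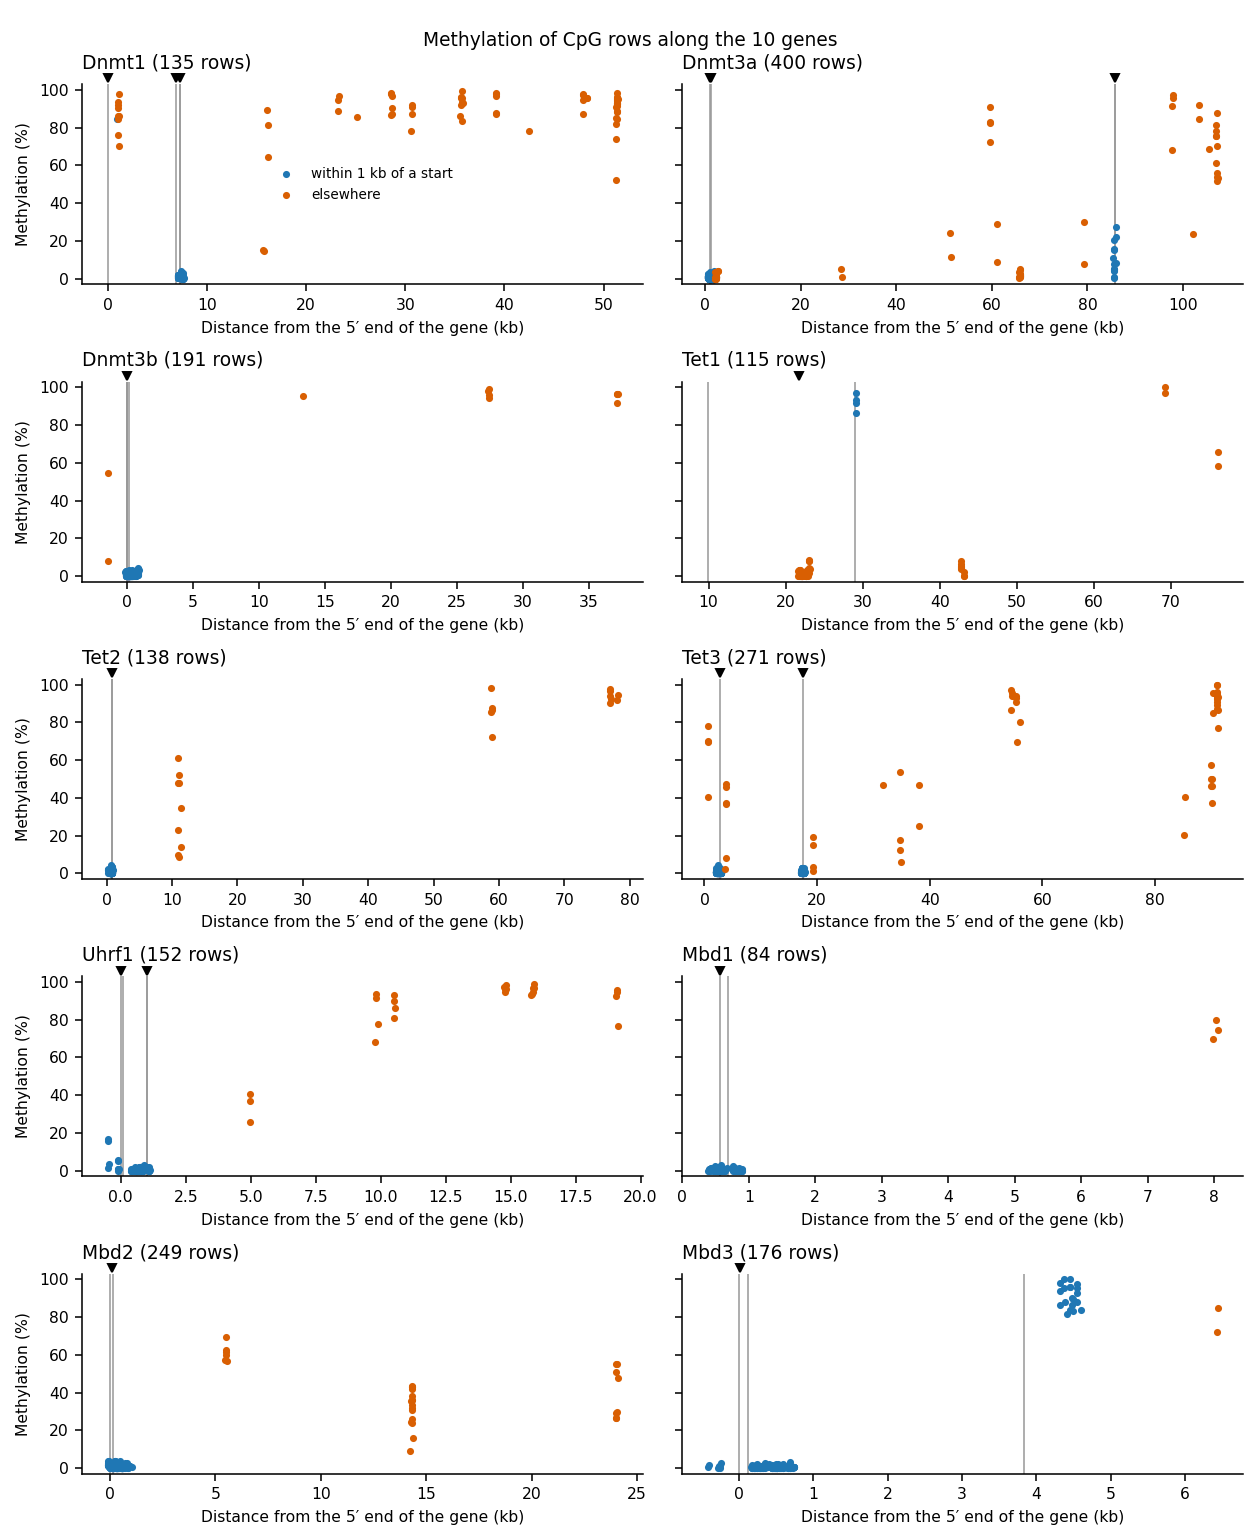
Methylation of each CpG row (%, all libraries pooled) against its distance from the 5′ end of the gene record (kb), for the 10 genes. Grey lines are GENCODE basic transcript starts, triangles are curated RefSeq starts, blue points lie within 1 kb of a basic start and orange points elsewhere; most starts sit in unmethylated groups of rows, while rows at the starts of Tet1-201 and Mbd3-202 and next to the first start of Dnmt1 are mostly above 80%.

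Dnmt1, the maintenance methyltransferase, had 135 rows. The 65 rows within 1000 bp of 3 of its starts were all under 5%, with a mean of 0.938%, and the library means ran from 0.308 to 1.82%. The body of the gene was methylated: the 20 rows in the coding exons at chr9:20908476-20908681 had a mean of 88.8% and ran from 81.0 to 94.0% over the libraries. Its most variable stretch, 4 intronic rows at chr9:20929234-20929261, had a mean of 87.1% and an SD of 11.5 points over 11 libraries. A further start, that of Dnmt1-202, lies upstream of the others. The 10 intronic rows at chr9:20958779-20958896, about 1043 bp downstream of it, had a mean of 86.2%, and 1 row within 1000 bp of it was at 84.4%.

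Uhrf1, which recognises half-methylated CpGs and recruits Dnmt1, had 152 rows. Its 116 rows around its starts had a mean of 0.713%. Levels were higher upstream of the first start, where the 4 rows at chr17:56302816-56302866 had a mean of 9.39% and ran from 4.26 to 15.1% over the libraries. The body was the opposite of the start, with 5 stretches of rows (4 or more rows with gaps of at most 100 bp) at 82.7 to 96.5%.

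Dnmt3a, the main de novo methyltransferase of the adult brain, had the most rows (400) and the most varied pattern. The island at its first starts spanned 339 rows at chr12:3806533-3808246 with a mean of 0.680%. The 14 rows within 1000 bp of the internal starts of Dnmt3a-205 and Dnmt3a-203 had a mean of 10.6%, of which 4 were under 5%, and the library means ran from 3.28 to 18.1%. The 10 of these rows that lie upstream of the internal start had the following levels. In the Wt libraries they were 11.4, 4.07, 8.78 and, in the library labelled male, 14.7%. The Tg females were at 1.65, 6.88, 7.33 and 5.71%, and the Tg males at 5.61, 1.97, 13.4 and 8.05%. The groups overlapped, with Wt at 9.74 ± 4.49% (SD, n = 4) and Tg at 6.32 ± 3.71% (SD, n = 8). Beyond the internal start the gene was methylated, with 88.1% over 4 intronic rows and 69.2% over 10 rows of the 3′ untranslated exon, where the libraries ran from 58.9 to 90.5%.

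Dnmt3b, the de novo enzyme used mainly in early development, had 180 of its 191 rows in 1 stretch across its starts, all under 5% with a mean of 0.805%. The 11 other rows had a mean of 84.1%, and stretches in an intron and in the 3′ untranslated exon were at 96.7 and 95.2%.

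Tet1 was the exception among the erasers. The only rows near a basic start were the 4 rows 142 bp from the start of Tet1-201, at 86.5 to 97.0%. No row lay within 1000 bp of the other basic start of Tet1, the nearest being 11726 bp away. An unmethylated island lay in between. Its 27 rows at chr10:62886150-62886465 had a mean of 0.990%, and its 65 rows at chr10:62886848-62887392 had a mean of 1.07%. Another 6 intronic rows, at chr10:62885904-62886019, had a mean of 5.72%. The curated RefSeq start of Tet1, at position 62887324 of chromosome 10, lies in this island, 7310 bp from the nearest basic start. The 77 rows within 1000 bp of the RefSeq start were all under 5%, with a mean of 1.01%, and the library means ran from 0.301 to 2.34%. A methylated or an unmethylated Tet1 promoter was obtained from the same reads, according to which annotated start was used. The expression of the transcripts was not examined.

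Tet2 and Tet3, the more strongly expressed Tet enzymes in adult brain, had unmethylated starts. The 117 rows at the Tet2 starts had a mean of 0.728%, and the 80 and 138 rows at the starts of Tet3-202 and Tet3-203 had means of 0.877 and 0.684%. Their bodies held most of the intermediate levels among the erasers. A Tet2 intronic stretch of 7 rows, 10201 bp downstream of the start, was at 35.8% and ran from 18.3 to 51.2% over the libraries. A Tet3 coding stretch of 6 rows was at 48.0% and ran from 13.3 to 79.7%. No row of either stretch was listed by all 12 libraries, so these ranges compare means over differing rows. The longest Tet3 stretch outside promoters, 13 rows at chr6:83367969-83368104, was at 91.8%. Upstream of Tet3-203, the 4 rows at chr6:83458457-83458520 were at 64.5%, so a methylated place lay upstream of an unmethylated start, at -2077 bp from it.

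Across the readers, the starts of Mbd1 (81 rows, 0.525%) and Mbd2 (219 rows, 0.887%) were unmethylated, as were the first starts of Mbd3 (154 rows, 0.709%). Mbd1 binds methylated CpGs through a methyl-CpG domain and had only 3 rows outside its promoter, at a mean of 74.9%. At Mbd3 the promoter average of 11.1% joined unlike places: its median over 174 rows was 0.677%, and the 20 rows at the internal start of Mbd3-202 were all above 80% with a mean of 91.3%. The libraries ran from 84.3 to 95.2% there. RefSeq has no curated transcript from this start.

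Genome-wide, 85.1% of 25981 transcript starts of protein-coding genes with 3 or more rows within 1000 bp were under 5%, and 1.99% were above 80%. By this measure the starts of Tet1-201 and Mbd3-202 are in the small methylated class.

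Mbd2, the reader that joins methylated CpGs to the NuRD repressor complex, had the stretch with the largest SD between libraries. Its 3 stretches outside the promoter had means of 61.3, 32.1 and 40.1%, and SDs over the 12 libraries of 14.8, 13.9 and 19.2 points. All 12 libraries listed 3 of the 6 rows of the first and 0 of the 8 rows of the third. Library means of these 2 stretches are therefore over differing rows. Whether this added to their spread was not tested. Over all 53 stretches of the 10 genes, the median SD was 0.554 points for the 17 under 5%, 9.05 points for the 14 at 5 to 80% and 5.29 points for the 22 above 80%. The Tet3 coding stretch had an SD of 17.5 points. For single rows at 20 to 80%, the median SD was 18.2 points in members and 18.1 points over all rows tested in the genome. The second Mbd2 stretch, at chr18:70582420-70582544, lies in the coding and untranslated part of the last exon of the shorter transcript Mbd2-202, and all 12 libraries listed its 16 rows. Wt females were at 44.8, 25.1 and 14.2%, and the library labelled Wt male at 31.2%. Tg females were at 58.4, 51.1, 27.5 and 19.5%, and Tg males at 34.8, 38.2, 14.9 and 37.5%. Both groups spanned low and high animals. Reads per row and library were 10 to 100 with a median of 28, and the median correlation between its rows over the 12 libraries was 0.641. These rows share fragments and reads, so they are not independent measures. The highest libraries, Tg female 1, Tg female 2 and Wt female 1, were also the 3 with the highest autosomal mean. Whether that difference between libraries had a part in these levels was not tested.

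**Figure D2:**
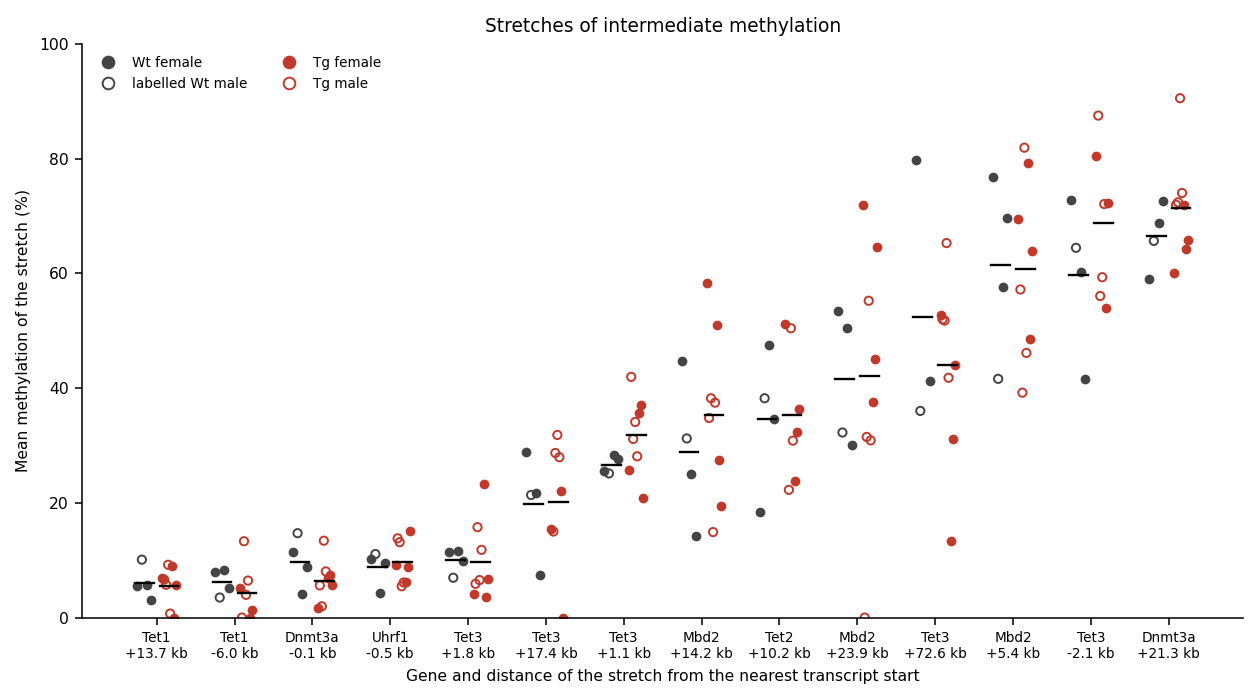
Mean methylation (%) of the 14 stretches at 5 to 80% in the 12 libraries, ordered by level; each point is a library, black lines are group means, and the axis names the gene and the distance from the nearest basic start (kb). In no stretch do Wt and Tg separate, and the widest spreads are those of Mbd2 and of the Tet3 coding stretch. A point is the mean over the rows that the library listed, and these rows can differ between libraries.

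The main comparison of the study is Tg against Wt. None of the gene levels tested passed the exact permutation test over animals, each averaged over rows that all 12 libraries listed. Averaged over the 1125 promoter rows listed in all 12 libraries, the Wt level was 0.886 ± 0.168% (SD, n = 4) and the Tg level 0.811 ± 0.158% (SD, n = 8), a difference of -0.0755 points (two-sided exact permutation p = 0.461). Of the 116 such rows outside promoters, 56 were Tet1 rows, most of them in its unmethylated island. Averaged over these 116 rows, Wt was at 17.2 ± 2.72% and Tg at 18.7 ± 2.36%, a difference of 1.53 points (exact permutation p = 0.317). Leaving out 1 library at a time gave 0.918 points (without Wt female 3) to 2.87 points (without Wt female 1, exact permutation p = 0.0667). With the labelled sex kept in the permutation, the p-values were 0.463 and 0.354. When reads were summed instead of averaging rows, Tg was 3.12 points higher outside promoters (exact permutation p = 0.0465). Leaving out the Mbd2 rows brought this to 1.72 points (exact permutation p = 0.0667). The libraries highest outside promoters were again Tg female 1 (22.3%), Tg female 2 (21.9%) and Wt female 1 (21.2%), against 15.4 to 19.6% in the others.

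Gene by gene, with body for the rows outside promoters, 15 of the 20 promoter and body levels had at least 3 rows in all 12 libraries. An exact permutation p under 0.05 was reached by 0 of the 9 promoters, against 4.65% of 13053 promoters in the genome, and by 0 of the 6 bodies, against 3.40% of 6591. The smallest p was at the Uhrf1 promoter. Its Wt libraries were at 2.56, 0.647 and 1.57% in females and 2.28% in the library labelled male. The Tg females were at 0.929, 1.36, 1.16 and 1.34%, and the Tg males at 1.71, 1.47, 0.818 and 0.515%. The groups overlapped, at a difference of -0.603 points (exact permutation p = 0.113). Leaving out Wt female 2, the lowest Wt library, made it -0.975 points (exact permutation p = 0.0121). The Uhrf1 promoter level rested on 60 of 126 rows. With all 126 rows, centred row by row, the difference was -0.233 points (exact permutation p = 0.455). With a minimum of 20 reads it was -0.553 points (exact permutation p = 0.483).

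Among the writers, the Dnmt1 promoter had 1.02 ± 0.595% in Wt and 0.750 ± 0.603% in Tg (exact permutation p = 0.453), and its body 80.6 ± 5.94% and 76.6 ± 5.15% (exact permutation p = 0.257). The Dnmt1 body level rested on 6 of its 69 rows. The Dnmt3a promoter was at 0.831 ± 0.224% and 0.786 ± 0.203% (exact permutation p = 0.733), and its body at 11.6 ± 0.799% and 11.4 ± 1.53% (exact permutation p = 0.790). This body level rested on 22 of 64 rows, 13 of them in the nearly unmethylated intronic stretch. The mean over all 64 rows was 29.2%. At the Dnmt3b promoter, Wt was at 1.02 ± 0.476% and Tg at 0.781 ± 0.227% (exact permutation p = 0.295). Of the 4 Wt libraries there, 1 (Wt female 1) stood at 1.71% and the others at 0.688 to 0.946%. With all 180 Dnmt3b promoter rows, centred row by row, Tg minus Wt was -0.250 points (exact permutation p = 0.0182). With a minimum of 20 reads it was 0.272 points (exact permutation p = 0.444). The Uhrf1 body rested on 3 rows, with 85.3 ± 8.78% in Wt and 89.2 ± 7.26% in Tg (exact permutation p = 0.414).

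No eraser level passed the test. The Tet1 rows outside its basic promoters, 56 rows most of which are in the island, were at 1.39 ± 0.499% in Wt and 1.57 ± 0.356% in Tg (exact permutation p = 0.487). The Tet2 promoter was at 0.697 ± 0.237% and 0.665 ± 0.555% (exact permutation p = 0.939). The Tet3 promoter was the only eraser level with a p near that of Uhrf1, at 0.723 ± 0.316% in Wt and 1.07 ± 0.371% in Tg (exact permutation p = 0.135). Without Tg female 4, the shallowest library, the Tet3 difference was 0.438 points (exact permutation p = 0.0424). That was the smallest p when a library was left out, and the largest was 0.339 (exact permutation). The Tet3 promoter level rested on 162 of 218 rows. With all 218 rows, centred row by row, the difference was 0.243 points (exact permutation p = 0.210). The Tet3 body, over 7 of its 53 rows, was at 34.5 ± 5.11% and 34.4 ± 5.16% (exact permutation p = 0.978).

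For the readers, the Mbd1 promoter was at 0.532 ± 0.131% in Wt and 0.590 ± 0.245% in Tg (exact permutation p = 0.667), that of Mbd2 at 0.912 ± 0.300% and 0.823 ± 0.404% (exact permutation p = 0.707), and that of Mbd3 at 0.820 ± 0.270% and 0.603 ± 0.202% (exact permutation p = 0.149). The Mbd3 promoter level rested on 130 of 174 rows. Of the 20 methylated rows at the Mbd3 internal start, all 12 libraries listed 0. The Mbd3 comparison therefore did not cover that start. The Mbd2 body was at 32.2 ± 10.5% in Wt and 39.7 ± 12.9% in Tg, a difference of 7.51 points (exact permutation p = 0.339). It had the largest difference in points of the 15 levels and also the largest SDs. Leaving out 1 library at a time moved it from 4.22 points (without Wt female 3) to 12.4 points (without Wt female 1). In a model of summed reads over all 19644 promoter and body levels of the genome, with a dispersion term for the spread between animals, 0 levels were called, 0% of the background, and the Mbd2 body had an adjusted p of 0.832. A model that counts reads as independent called 1.72% of these levels genome-wide, and the Mbd2 body had an adjusted p of 5.71e-29 in it.

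**Figure D3:**
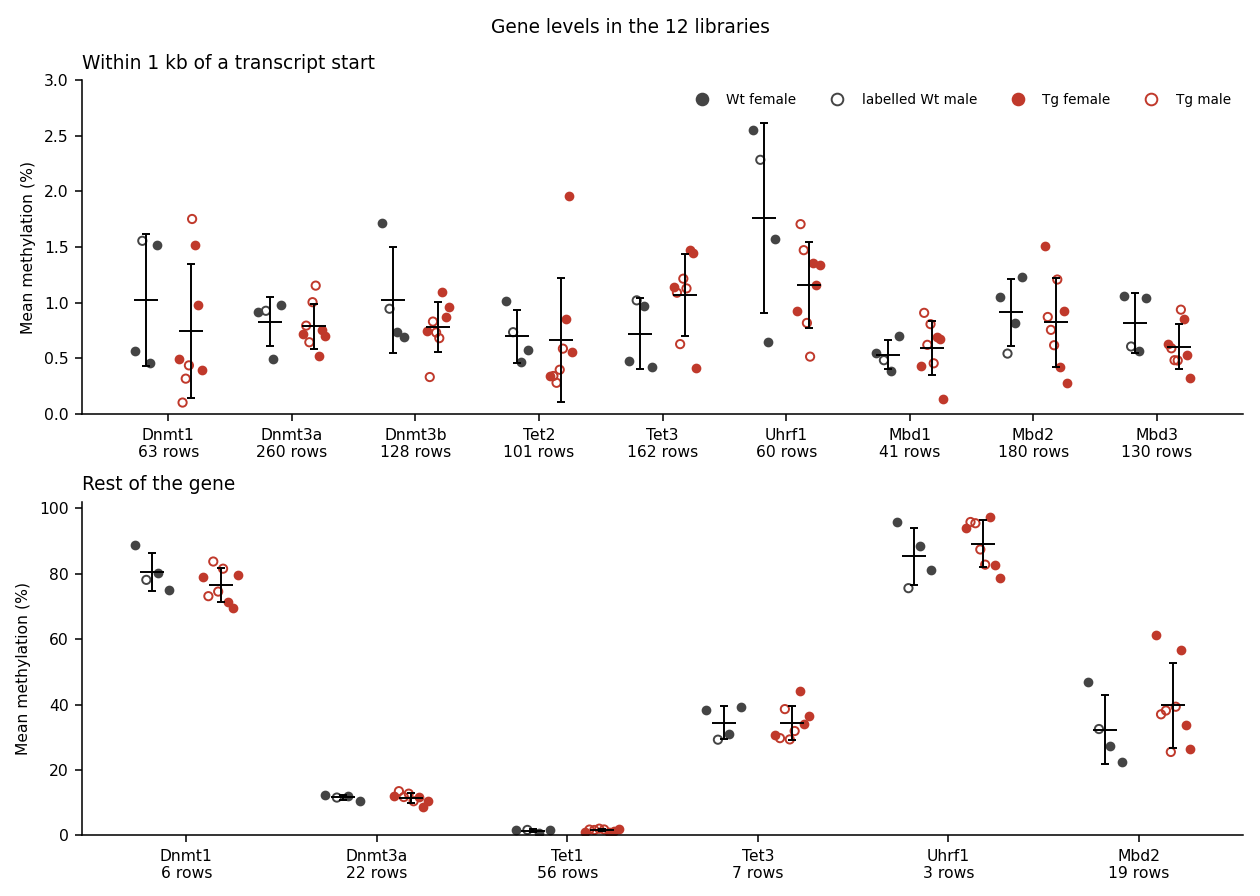
Mean methylation (%) of each gene within 1 kb of a transcript start (top) and in the rest of the gene (bottom), over rows listed in all 12 libraries. Points are libraries (grey Wt, red Tg, open symbols labelled male), and black marks are the mean and SD of a group; Wt and Tg overlap in all 15 levels.

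Row by row, 1858 member rows had values in at least 3 Wt and 6 Tg libraries. They were tested together with all 1640806 such rows of the genome, with the labelled sex as a covariate. The library labelled Wt male was thus coded as male, and a fit with it coded as female was not run. A row was called at an adjusted p under 0.1 and a read-weighted difference of at least 10 points. The binomial model, which treats the reads of an animal as independent draws, called 44 member rows (2.37%), against 4.11% of all rows. Of these 33 were higher in Tg (background 2.23%) and 11 lower (background 1.88%). Of the 44 calls, 27 were among the 89 rows tested at 20 to 80%. That is 30.3% of these rows, against 21.6% of such rows in the genome. By gene, the calls were 15 of 248 rows tested in Mbd2, 7 of 266 in Tet3, 6 of 128 in Dnmt1 and 5 of 379 in Dnmt3a. Tet2 had 3 of 138, Uhrf1 3 of 150, Mbd3 2 of 172, Dnmt3b 1 of 185, Tet1 1 of 109 and Mbd1 1 of 83. The background for each is the 4.11% of all rows. Of the Mbd2 calls, 9 were in the last-exon stretch described above, so they repeat 1 difference between the same animals. Promoters held 6 of the 44 calls, among 1493 promoter rows tested, and these were 4 rows at the internal start of Dnmt3a and 2 at that of Mbd3. The share called over all promoter rows of the genome was not counted, so this count has no background of its own.

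The overdispersion model, which adds a term for the spread between animals, called 0 member rows, and 0% of all rows, with a smallest adjusted p of 0.505. The rows called by the binomial model had a median dispersion of 3.92; a value of 1 is the variance that counting alone gives. An unadjusted p under 0.05 was found in 221 member rows (11.9%), against 9.50% of all rows. The member count was 152 without the sex covariate. It was 141 to 214 when a library was left out, lowest without the library labelled Wt male. The background was not counted for these alternatives. Among rows at 20 to 80%, such a p was found in 3 of 89 in the main fit (3.37%), against 4.83%. Ranges of Wt and Tg did not overlap in 2 member rows (0.108%), against 0.219% of all rows. Among rows at 20 to 80% this was 1 of 89, against 0.773%.

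**Figure D4:**
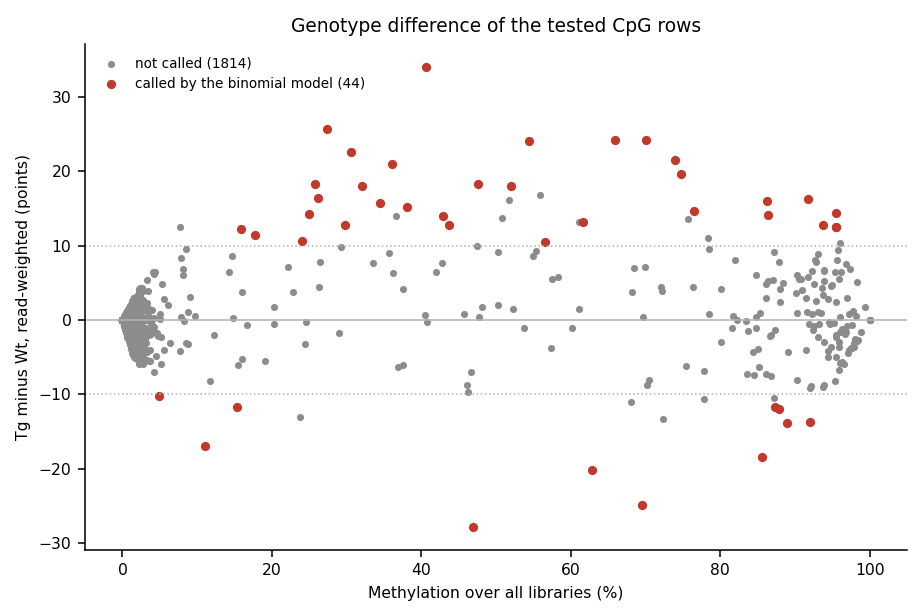
Read-weighted difference Tg minus Wt (percentage points) against the pooled methylation level (%) of the 1858 member rows tested; red points are the 44 rows called by the binomial model and dotted lines mark 10 points. Calls lie on both sides of 0. Most rows near 0% stay within 10 points, but a called Dnmt3a row at 4.84% differs by -10.2 points.

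The row with the smallest p under the overdispersion model among the called rows was on the minus strand at position 3891604 of chromosome 12, 124 bp upstream of the internal start of Dnmt3a, inside the second sequence shown above. Wt libraries were at 7.41, 10 and 13.6% in females and 13.3% in the library labelled male. Of 7 Tg libraries with a value, 6 were at 0% and Tg female 1 was at 3.57%, so the groups did not overlap. The weighted difference was -10.2 points (overdispersion model, adjusted p = 0.505), with 17 to 58 reads a library. On the other strand of the same CpG the difference of group means was -4.26 points. The other row without overlap was intronic in Tet3 (chromosome 6, position 83427328, minus strand), at 68, 72.7 and 53.8% in the Wt libraries and 20 to 50% in the 7 Tg libraries with a value, with 15 to 26 reads (adjusted p = 0.505 in the overdispersion model).

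The other called rows with the smallest p in the overdispersion model had overlapping groups and adjusted p-values of 0.505 to 0.521 in the overdispersion model. An intronic Mbd3 row at position 80395005 was at 66.7% in Wt female 1 and at 95.2 to 100% in the other 10 libraries with a value. A coding Mbd3 row at position 80395167 had a weighted difference of -12.0 points. A coding Tet3 row at position 83404573 was at 60% in Wt female 1 and 87.5% in Wt female 3, with the 7 others at 100%. A coding Tet2 row at position 133467063 was at 100% in 3 Wt libraries and at 66.7 to 100% in 7 Tg libraries. An intronic Mbd1 row at position 74275657 and a Dnmt3b row at -1436 bp from the start had weighted differences of 19.6 and 24.0 points. In the intronic Mbd3 row and the coding Tet3 row, Wt female 1 was the lowest library.

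Stretches were tested as summed reads over rows listed in all 12 libraries. Of 28 member stretches, the overdispersion model called 0 (0% of 33825 stretches genome-wide) and the binomial model 1 (background 1.87%), which is the Mbd2 last-exon stretch. Its weighted difference was 12.3 points, against 6.42 points between the means of library levels, and its dispersion was 40.5 (adjusted p = 0.875 in the overdispersion model). An unadjusted overdispersion p under 0.05 was found for 1 stretch, against 6.01% genome-wide. With rows listed in at least 3 Wt and 6 Tg libraries, 47 member stretches could be tested: the overdispersion model called 0 (0% of 62711), the binomial model 2 (background 4.22%), the second being the stretch upstream of Tet3-203 with 11.4 points, and 2 had an unadjusted p under 0.05 (background 5.54%).

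Sex was compared within the 8 Tg libraries. Exact permutation p-values under 0.05 were found in 0 of 9 promoters (background 4.55%) and 0 of 6 bodies (background 3.06%). The smallest was at the Dnmt3b promoter, where the difference Tg male minus Tg female was -0.275 points (exact permutation p = 0.0571, against a smallest possible p of 0.0286 over 70 splits). The Mbd2 body was at 35.0% in Tg males and 44.5% in Tg females, a difference of -9.47 points (exact permutation p = 0.371). It ran from -15.5 points without Tg female 4 to -3.92 points without Tg female 1. Over all members, Tg males and females differed by -0.0303 points in promoters (exact permutation p = 0.771) and by -1.07 points outside (exact permutation p = 0.457).

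Other genes of the pathway were counted for context, against the same backgrounds of 2.23% of all rows called higher and 1.88% called lower by the binomial model. Among 8 maintenance and writer cofactors (such as Dnmt3l and Uhrf2), the binomial model called 6 of 707 rows higher and 9 lower in Tg. Among 11 demethylation partners (such as Tdg and Gadd45a), it called 9 of 914 rows higher and 13 lower. These include Ogt, a gene on chromosome X, where the library labelled Wt male went against its label. Among 8 genes of the methyl donor cycle (such as Mat2a and Ahcy), it called 3 of 548 rows higher and 4 lower. The overdispersion model called 0 rows in each of these 3 lists. Promoters under 5% were 5 of 5, 7 of 8 and 7 of 7 in them, and promoters with an exact permutation p under 0.05 were 0, 0 and 1 (background 4.65%). Body levels with such a p were 0 of 3 for the cofactors and 1 of 8 for the demethylation partners (background 3.40%), and no body level could be formed for the methyl donor cycle.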

How the data were processed

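DNA from 12 mouse brains was sequenced by RRBS. As the submitters' notes and the study's methods state, reads were aligned to mm10 and called with Bismark and then handled in methylKit. The authors deposited, for each mouse and strand, counts of reads at every listed CpG cytosine (coverage, methylated C, converted T). The smallest deposited coverage was 10 reads. Versions are not given in the sources used here.

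The tables were joined by position and strand, after 11 duplicated positions had been removed. A methylation level is the share of methylated reads, in percent. Because reads with incomplete conversion also count as methylated, and no conversion rate was used here, levels near 0 include that background. Rows were tested genome-wide by logistic regression on genotype and sex, either with a likelihood-ratio test (binomial model) or with the deviance divided by a dispersion per row, never below 1, and an F test (overdispersion model), with Benjamini-Hochberg adjustment. The thresholds of 10 points and 0.1 follow the methods of the study. Gene levels were means over rows listed in all 12 libraries, compared between groups of libraries by exact permutation (two-sided). The level described for a stretch or a start in a library was the mean over the rows which that library listed. The labels give no replicate numbers, so numbers only name a library. Each library counted as 1 mouse. The p-values of the permutation tests and the overdispersion model measure the spread between these libraries. Those of the binomial model do not, because it counts reads as independent. The scripts were tested on simulated data. Python 3.11.15, numpy 2.4.6, scipy 1.17.1, R 4.3.3 and limma 3.58.1 were used.

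All 10 genes were described. Rows named singly were the called rows with the smallest p in the overdispersion model, 1 within 100 bp, at most 8. Stretches named in each gene were the longest and the most variable ones outside promoters and those at starts, and others were named after their values were seen. The members and lists were chosen with earlier results of these data known. Depth limits precision: a row with 20 reads moves in steps of 5 points. Alternatives were 20 reads, rows in all 12 libraries, no sex covariate, females only, both strands summed, 25 points, promoters of 2000 bp, RefSeq starts, summed reads, gaps of 300 bp, limma and leaving out each library. A further list of pathway genes is not reported here. A table of sites called by the authors was not used.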

Additional observations from a re-analysis of the deposited data

Results flagged for a closer look

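Levels of the 10 genes were searched for a library that stood apart from its group by Dixon's test at the 95% level, in 68 groups of 4 or 8 libraries, of which chance flags about 1 in 20. Such a library was found in 4 groups. Wt female 2 was the lowest of the 4 Wt libraries at the Dnmt3a promoter, at 0.497% against 0.918 to 0.980% in the others. Wt female 2 was also the lowest Wt library in the Tet1 rows outside basic promoters, at 0.648% against 1.56 to 1.70%. Tg female 3 was the highest of the 8 Tg libraries at the Tet2 promoter, at 1.96% against 0.280 to 0.856%. Tg male 3 was the lowest of the 4 Tg males in the Mbd2 body, at 25.5% against 37.0 to 39.3%.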

How the results depend on the processing

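No paired analysis was run, because Wt and Tg libraries came from different mice and the labels give no pairs. Counts of 0 from the overdispersion model on rows and on stretches stayed at 0 under each alternative run, limma on logit levels included. The binomial count of 44 rows was 10 with at least 20 reads, 15 with rows in all 12 libraries and 3 with a difference of at least 25 points, each of which tests or admits fewer rows, and 33 to 51 when a library was left out. The 2 rows without overlap became 0 with 20 reads and 0 with rows in all 12 libraries, and 2 to 9 when a library was left out (9 without the library labelled Wt male, 8 without Wt female 1, 6 without Wt female 3, and 4 without Wt female 2, Tg female 1 or Tg male 2). Alternatives for this count, RefSeq starts, stretches of rows in 3 Wt and 6 Tg libraries and leaving out Mbd2 were chosen after seeing the data. With 20 reads, the difference over promoters turned to 0.0594 points and that outside to -0.611 points, the latter over 19 rows. Summed reads brought the difference outside promoters to 3.12 points. The count of gene levels with an exact permutation p under 0.05 was 1 with row-centred levels (Dnmt3b promoter) and 0 to 1 when a library was left out. For Tg males against females it was 0 to 1, being the Dnmt3a promoter without Tg male 2 and the Tet1 body without Tg female 4.

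No single gene difference (Tg minus Wt) passed the threshold in the reported analysis. With row-centred levels over all rows, signs changed for the Dnmt1 body (0.50), the Dnmt3a promoter (0.0603) and body (1.48), the Tet3 body (2.78) and the Mbd1 (-0.122) and Mbd2 (0.0261) promoters. With 20 reads they changed for the promoters of Dnmt3a (0.00855), Dnmt3b (0.272), Tet2 (0.0137), Mbd1 (-0.388) and Mbd2 (0.0409) and for the Tet1 body (-0.231). Summed reads changed the bodies of Dnmt1 (3.37), Dnmt3a (0.851) and Tet3 (0.0667). Females alone changed the Tet2 (0.244) and Mbd1 (-0.0653) promoters and the Tet3 (0.120) and Uhrf1 (-0.390) bodies. Promoters of 2000 bp changed the Tet3 body (0.144), and RefSeq starts the Tet1 body (-0.0806). Leaving out a library gave ranges across 0 for the Tet2 promoter (-0.217 to 0.0728), the Tet3 body (-1.85 to 1.5), the Tet1 body (-0.0714 to 0.279), the Dnmt3a promoter (-0.156 to 0.00534) and body (-0.590 to 0.171) and the Mbd2 promoter (-0.213 to 0.0184). The cause of these changes was not tested. Levels under 1% rest on few methylated reads. The smallest promoter change that could be detected at this depth was not tested.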
